A study of Homo sapiens with 2 samples.

Results

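The cell cycle and DNA replication genes described here are 43 genes that dividing cells use to copy their DNA and to separate it. They were compared between 2 human lung cancer lines, PC9 and MTAC-P. PC9 is a lung adenocarcinoma line that depends on a mutant EGFR, and MTAC-P was derived from PC9 and resists inhibitors of the EGFR kinase (EGFR-TKI), per the labels. Both lines grew in DMEM with serum and were passaged on the same schedule, and the labels name no inhibitor in the medium at harvest. Each line has 1 library, so no value below has a replicate error and no test was possible. The series text speaks of triplicates, but 1 value per transcript is given for each line. The sources used here do not say how MTAC-P was selected or whether it is 1 clone.

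The members are the symbols of a fixed list, and all 43 were found among the 30843 symbols of the tables. They were divided into 18 genes of the G1/S transition and S phase and 25 genes of G2 and mitosis (G2/M). A level is in FPKM, a value scaled to transcript length and library size, summed over the listed transcripts of a symbol. A log2 ratio is log2((MTAC-P + 1)/(PC9 + 1)) of these levels, so a positive value is higher in MTAC-P. A symbol was compared where its mean over both libraries was at least 1 FPKM. All 43 members passed this minimum, as did 11435 symbols in all.

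As background, a cell that enters the cycle loads the MCM helicase onto replication origins in G1, guided by CDC6 and CDT1. Cyclin E with its kinase and the E2F transcription factors then start S phase. Genes needed for S phase are switched on by E2F proteins when the retinoblastoma protein releases them. Genes needed for mitosis are held down by the DREAM complex through an element called the CHR and are later activated by MYBL2 and FOXM1. Levels of these RNAs in a whole culture follow both the share of cells in each phase and the RNA that each cell holds, and fewer cells of a kind and less RNA per cell cannot be told apart here.

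The promoters of these genes carry known control elements, shown here because they divide the G1/S from the G2/M genes by a property that the list did not use. RefSeq (GRCh38.p14) gave a promoter for 35 of the 43 genes, from 250 bases before to 50 after each start. For 6 of the 35 genes it gave more than 1 start, and a gene was counted where any start held the letters. Those without a promoter in the table were MCM4, MCM5, CCNE2, FOXM1, AURKA, BIRC5, UBE2C and TPX2. The E2F element was searched as TTTCCCGC or TTTGGCGC, the CHR as TTTGAA, and the CCAAT box, which binds NF-Y, as CCAAT, each on both strands. The 100 bases before the start are printed for 4 G1/S genes, with every match in capitals:

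PCNA (chr20:5126623-5126722, minus strand): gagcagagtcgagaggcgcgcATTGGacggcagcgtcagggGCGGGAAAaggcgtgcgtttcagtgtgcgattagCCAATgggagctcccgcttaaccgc
CDC25A (chr3:48188418-48188517, minus strand): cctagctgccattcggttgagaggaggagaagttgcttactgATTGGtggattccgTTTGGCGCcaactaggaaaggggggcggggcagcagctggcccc
E2F1 (chr20:33686386-33686485, minus strand): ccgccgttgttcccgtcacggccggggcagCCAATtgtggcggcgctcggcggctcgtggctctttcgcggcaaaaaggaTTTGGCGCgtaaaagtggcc
MCM6 (chr2:135876444-135876543, minus strand): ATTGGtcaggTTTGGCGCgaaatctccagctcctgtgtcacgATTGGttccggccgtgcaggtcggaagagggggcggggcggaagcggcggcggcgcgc

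The same stretch follows for 3 G2/M genes, where the capitals mark the CHR (TTTGAA, or TTCAAA when read on the other strand) and CCAAT boxes. In MKI67 the second CHR shares a base with the CCAAT box beside it.

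CDC20 (chr1:43358881-43358980, plus strand): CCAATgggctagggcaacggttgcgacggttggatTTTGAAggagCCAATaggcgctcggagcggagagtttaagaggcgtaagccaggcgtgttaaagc
KIF11 (chr10:92593030-92593129, plus strand): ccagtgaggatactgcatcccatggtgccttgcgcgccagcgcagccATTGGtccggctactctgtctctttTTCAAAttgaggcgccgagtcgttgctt
MKI67 (chr10:128126424-128126523, minus strand): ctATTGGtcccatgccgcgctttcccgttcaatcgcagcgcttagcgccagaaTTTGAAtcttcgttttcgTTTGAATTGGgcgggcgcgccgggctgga

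The E2F element was present in 10 of 15 G1/S promoters (66.7%) and in 2 of 20 G2/M promoters (10.0%). It was present in 2.75% of the 27305 genes in the RefSeq table and in 4.80% of the 7992 of them that were compared here. The CHR showed the opposite division, with 12 of 20 G2/M genes (60.0%) and 1 of 15 G1/S genes (6.67%), against 18.2% of all genes and 13.4% of those compared. The CCAAT box was present in 10 of 15 G1/S genes (66.7%) and 16 of 20 G2/M genes (80.0%), against 39.7% and 43.5%. A match says only that the letters stand in the window, and an absence only that these exact letters do not. Variant or more distant elements were not searched. CCNE1, MCM2, MYBL2, CENPE, KIF2C and MELK had none of the 3 motifs.

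**Figure D1:**
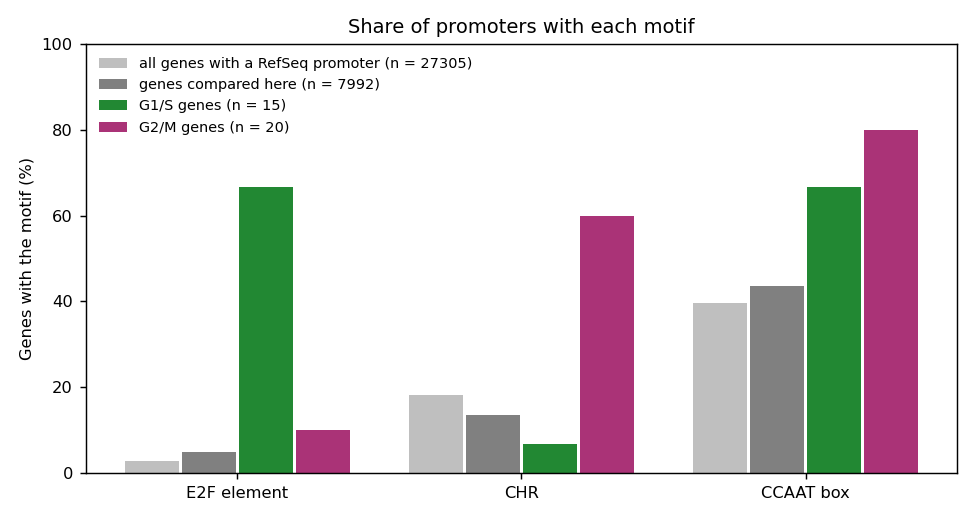
Share of genes (vertical axis, percent) whose RefSeq promoter holds an E2F element, a CHR or a CCAAT box, for all genes in the RefSeq table, the genes compared here, the 15 G1/S genes and the 20 G2/M genes with a promoter. The E2F element is in 66.7% of the G1/S genes and the CHR in 60.0% of the G2/M genes.

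The log2 ratios of the genes were also set out by motif. The 12 genes with an E2F element had a median log2 ratio of -0.032, and 5 of them lay above 0. The 13 genes with a CHR had a median of -0.16, with 3 above 0, and the 12 genes with neither had a median of -0.0079, with 6 above 0. CENPA and NUSAP1 hold both elements and are counted in the first 2 sets.

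Levels of the 43 genes differed by less than 2-fold between PC9 and MTAC-P, with 1 exception. MELK, which encodes a mitotic kinase of the AMPK family, stood at 9.48 in PC9 and at 0.964 FPKM in MTAC-P, a log2 ratio of -2.42. No other member reached 2-fold. The G1/S genes stood slightly higher in MTAC-P, with a median log2 ratio of 0.099, and the G2/M genes slightly lower, with a median of -0.15, beside -0.021 for all compared symbols.

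Thus 1 of 43 members (2.33%) was at least 2-fold different, where 7.77% of all compared symbols were at least 2-fold different in either direction, 3.48% being higher and 4.29% lower. Of the symbols with a mean of at least 5 FPKM 5.48% were at least 2-fold different. At 1.5-fold the members were 3 of 43 (6.98%), TYMS higher and CDC25C and MELK lower, where 20.2% of all compared symbols were at 1.5-fold or more, 8.96% being higher and 11.2% lower. The 1.5-fold calls near the limit turned on the processing: with equal upper quartiles, or equal sums without mitochondrial genes, TYMS (0.57 in both) did not reach it while CCNB1 and CCNE1 passed, which gave 0 higher and 4 lower. With a pseudocount of 5 MELK alone was left, and with one of 0.1 the counts were 1 higher and 5 lower. With the most abundant transcript only they were 3 higher and 2 lower. CCNB1 (-0.584) and CCNE1 (-0.582) lay just inside the 1.5-fold limit of 0.585. The median size of the log2 ratio, without its sign, was 0.15 over the members. It was 0.26 over all compared symbols and 0.23 over the 7870 with a mean of at least 5 FPKM. The median level in PC9 was 37.0 FPKM over the members, beside 9.88 and 17.2 over these sets. The sets are thus not matched to the members in level. The quartiles of all compared symbols ran from -0.29 to 0.23, and 29 of the 43 members (67.4%) lay between them.

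Of the G1/S genes 11 of 18 (61.1%) had a log2 ratio above 0, and of the G2/M genes 7 of 25 (28%), beside 47.6% of all compared symbols. These counts were 11 to 13 and 5 to 8 under the 4 other scalings of the libraries, which turned the sign of MCM4, MCM6, UBE2C, KIF20A and KIF2C, all with a log2 ratio within 0.02 of 0. The difference between the 2 medians has no test, since genes of 1 library are not replicates.

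**Figure D2:**
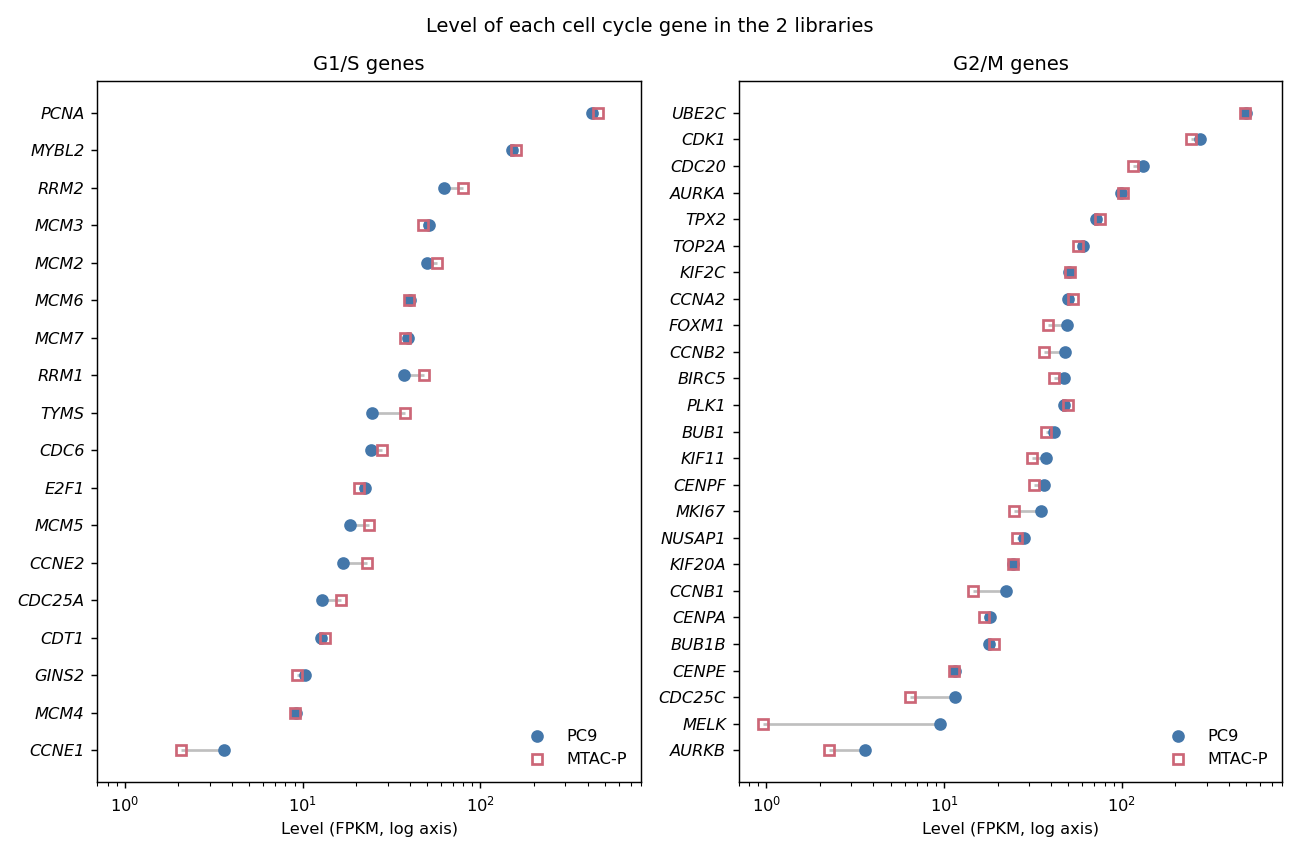
Level of each gene in FPKM (horizontal log axis) in PC9 (filled circles) and MTAC-P (open squares), with 18 G1/S genes on the left and 25 G2/M genes on the right, each ordered by its PC9 level. The symbols coincide for UBE2C, at 499 and 494 FPKM, and for CENPE, at 11.5 and 11.3, lie apart for CDC25C and CCNB1, and are farthest apart for MELK, at 9.48 and 0.964.

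The order of levels was also shared. Since FPKM is per length, genes can be ranked, though a rank also depends on which transcripts are listed, 92 of the members' 184 coding ones. Of the members 35 of 43 (81.4%) held a rank within 3 places in both libraries. The same count over other genes was not made. The first 6 ranks were held by the same genes in both, UBE2C, PCNA, CDK1, MYBL2, CDC20 and AURKA. UBE2C encodes the ubiquitin-conjugating enzyme of the anaphase-promoting complex (APC/C). The lowest levels in PC9 were those of CCNE1 (3.61) and AURKB (3.61), and in MTAC-P those of MELK (0.964), CCNE1 (2.08) and AURKB (2.24). Together the 43 genes held 0.394% of the summed FPKM of the PC9 library and 0.397% of that of MTAC-P.

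The genes that license origins and form the replicative helicase showed little difference, with a median log2 ratio of -0.011 over 9 genes and a range from -0.12 to 0.34. CDC6, the ATPase that helps load the helicase, stood at 24.3 in PC9 and at 27.8 FPKM in MTAC-P (0.19). CDT1, its partner in loading, stood at 12.7 and 13.4 (0.080).

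The 6 subunits of the MCM2 to MCM7 hexamer, the motor that unwinds DNA, did not all differ in 1 direction. MCM5 stood at 18.5 and 23.7 FPKM (0.34), and MCM2 at 49.97 and 56.6 (0.18). MCM3 stood at 51.2 and 47.5 (-0.11), and MCM7 at 39.0 and 37.5 (-0.053). MCM6 (39.9 and 39.6) and MCM4 (9.20 and 9.06) stood closest to each other between libraries. With the most abundant transcript only, MCM5 had a log2 ratio of 0.080 and MCM3 one of -0.35, so the order of the subunits depended on which transcripts were counted. The low level of MCM4 beside its partners comes with 1 of its 9 coding transcripts listed, whereas MCM6 has its single one listed. GINS2, a subunit of the GINS complex that joins the helicase at the fork, stood at 10.3 and 9.34 (-0.12).

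The 4 members of nucleotide supply and of the moving fork were all higher in MTAC-P, where 47.6% of all compared symbols were. Their median log2 ratio was 0.36, with none at 2-fold. In the wider replication list given below, 31 of 48 genes lay above 0 and 17 below, POLD2, RPA3 and RFC4 among the latter. TYMS, the thymidylate synthase that makes dTMP and is the target of fluorouracil, stood at 24.6 in PC9 and at 37.8 FPKM in MTAC-P (0.60), the highest log2 ratio of the 43 genes. It lies on chromosome 18 (657604 to 673578, plus strand). The subunits of ribonucleotide reductase, which makes deoxynucleotides, followed: RRM1 stood at 37.0 and 48.3 (0.37). RRM2, its regulated subunit, stood at 62.7 and 79.4 (0.34). Both listed transcripts of RRM2 carry the same value, 31.3 in PC9 and 39.7 in MTAC-P, and counted once they gave a log2 ratio of 0.33. PCNA, the sliding clamp of the polymerases, was abundant and close, at 423 and 459 (0.12).

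The cyclins that drive entry into S phase went in opposite directions. CCNE2 (cyclin E2) stood at 16.8 in PC9 and at 23.1 FPKM in MTAC-P (0.43), while CCNE1 (cyclin E1) stood at 3.61 and 2.08 (-0.58). CCNE1 is low in both lines and its log2 ratio ran from -0.77 to -0.28 with the pseudocount. CDC25A, the phosphatase that activates CDK2, stood at 12.9 and 16.5 (0.33).

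Among the transcription factors of the programme, E2F1 stood at 22.5 in PC9 and at 20.8 FPKM in MTAC-P (-0.11). MYBL2 (B-MYB), which is made in S phase and acts on mitotic genes, stood at 151 and 159 (0.072). FOXM1, the forkhead factor of G2, stood at 49.4 and 38.6 (-0.35). The first 2 lay between the quartiles of all compared symbols and FOXM1 below the lower one. With its most abundant transcript only, FOXM1 stood nearer to 0, at a log2 ratio of -0.20.

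The mitotic cyclins, CDK1 and CDC25C had a median of -0.39 over 5 genes, with 1 of 5 above 0. CDC25C, the phosphatase that activates CDK1 at mitotic entry (chromosome 5, 138285265 to 138338355, minus strand), stood at 11.5 in PC9 and at 6.39 FPKM in MTAC-P (-0.75). CCNB1 (cyclin B1) stood at 22.2 and 14.5 (-0.58), and CCNB2 (cyclin B2) at 48.1 and 36.4 (-0.39). CDK1 itself, the kinase that these cyclins activate, stood at 276 and 246 (-0.16). CCNA2 (cyclin A2), which acts from S phase on, stood at 49.9 and 53.0 (0.085).

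Genes of chromosome structure were both lower in MTAC-P. MKI67, which encodes the proliferation marker Ki-67 that coats mitotic chromosomes, stood at 35.1 in PC9 and at 24.6 FPKM in MTAC-P (-0.49). TOP2A, the topoisomerase that untangles sister DNA, stood at 60.2 and 56.3 (-0.095). Of the transcripts of MKI67, MKI67-201 stood at 16.6 and 15.6 and MKI67-202, the longer, at 18.4 and 9.002, so the difference lay in the longer one.

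**Figure D3:**
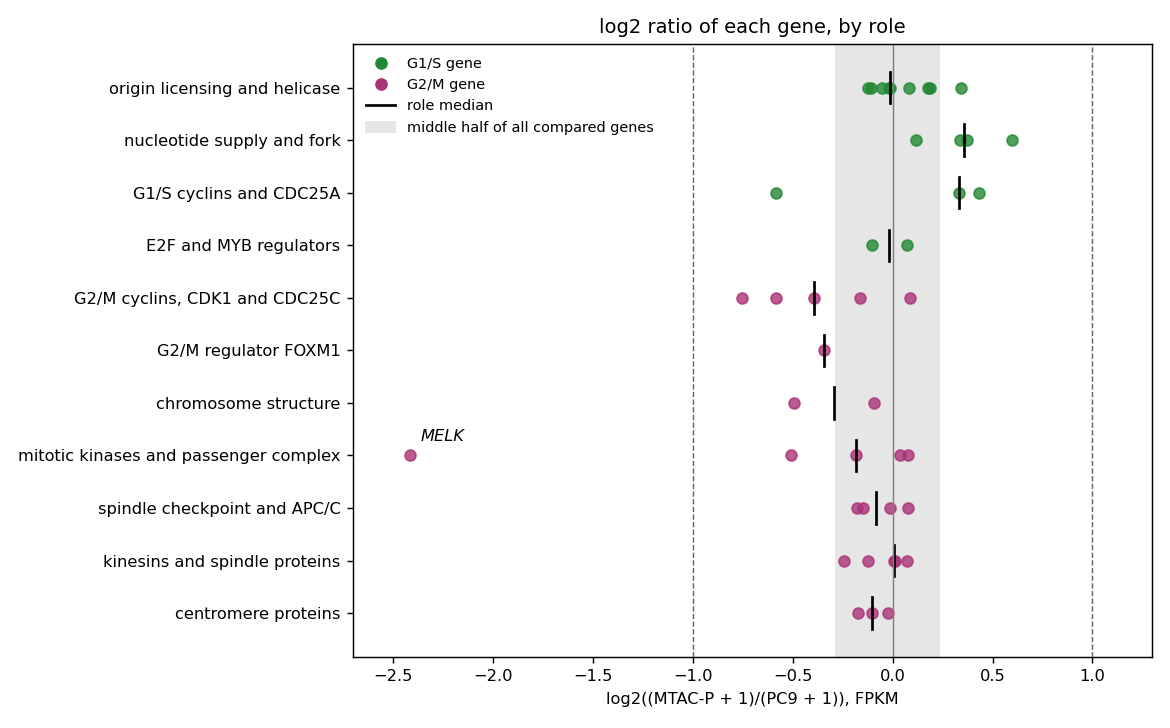
log2 ratio of MTAC-P to PC9 (horizontal axis, pseudocount of 1 FPKM) of each gene by role, G1/S genes in green and G2/M genes in purple, with the median of each role as a black bar. The grey band lies between the quartiles of all compared genes and dashed lines mark 2-fold; MELK at -2.42 is the only gene outside them.

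Kinases of the mitotic spindle and the chromosomal passenger complex differed among themselves. AURKA, the spindle pole kinase, stood at 99.0 in PC9 and at 102 FPKM in MTAC-P (0.036), and PLK1, which acts throughout mitosis, at 47.0 and 49.7 (0.077). AURKA has 11 listed transcripts, which differed in both directions: AURKA-209 stood at 23.7 and 10.4 (-1.12) and AURKA-210 at 14.8 and 24.0 (0.66). AURKB, the kinase of the passenger complex, stood at 3.61 and 2.24 (-0.51), with 1 of its 9 coding transcripts listed. BIRC5 (survivin), its partner, stood at 47.3 and 41.6 (-0.18).

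MELK stood apart from these. It lies on chromosome 9 (36572862 to 36677683, plus strand), and the tables list 1 of its 8 coding transcripts, MELK-201, with 18 exons and 1953 coding bases. Its level of 9.48 FPKM was 40th of 43 in PC9, and its 0.964 was the lowest of all members in MTAC-P. MELK-201 is the whole of the value, so a shift to transcripts that are not analysed here would give the same numbers as a loss of the gene's RNA, and the sum cannot tell them apart. Of the 2231 compared symbols with 1 listed transcript and unlisted coding ones, 7.40% were at least 2-fold different in either direction, and of the 2538 with all coding transcripts listed, 5.75%.

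The genes beside MELK did not share the difference. The 10 nearest compared coding genes, 5 on each side, ran from -0.56 to 0.23 with a median log2 ratio of -0.043, and none was at 2-fold. The 420 compared coding genes of chromosome 9 had a median of -0.057. The 100 bases that end before the first annotated exon of MELK held none of the motifs searched, as the absence of capitals shows:

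MELK (chr9:36572762-36572861, plus strand): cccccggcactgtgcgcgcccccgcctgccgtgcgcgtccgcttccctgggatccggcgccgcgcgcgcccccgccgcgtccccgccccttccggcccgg

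Genes of the spindle checkpoint and the APC/C were close, with a median of -0.081 over 4 genes. UBE2C stood at 499 in PC9 and at 494 FPKM in MTAC-P (-0.014). CDC20, which activates the APC/C at anaphase, stood at 131 and 116 (-0.18). The checkpoint kinase BUB1 stood at 41.6 and 37.4 (-0.15), and BUB1B (BubR1), a part of the inhibitor of the APC/C, at 18.0 and 19.05 (0.076).

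Motor and spindle proteins had a median of 0.0066 over 5 genes. KIF11 (Eg5), the kinesin that pushes spindle poles apart, stood at 37.4 in PC9 and at 31.4 FPKM in MTAC-P (-0.24). KIF20A, a kinesin of cytokinesis, stood at 24.3 and 24.5 (0.011), and KIF2C (MCAK), which trims microtubule ends, at 50.7 and 50.9 (0.0066). NUSAP1, which bundles spindle microtubules, stood at 28.03 and 25.6 (-0.12), and TPX2, which activates AURKA, at 71.6 and 75.3 (0.073).

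The 3 centromere members were all slightly lower in MTAC-P. The other genes with a CENP symbol, in the mitosis list given below, went in both directions, from a log2 ratio of -0.14 to 0.69. CENPA, the histone variant that marks centromeres, stood at 18.1 in PC9 and at 16.8 FPKM in MTAC-P (-0.10). CENPE, a kinesin of the kinetochore, stood at 11.5 and 11.3 (-0.022), and CENPF, a large kinetochore protein, at 36.4 and 32.1 (-0.17).

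Of the members, 27 have 2 or more listed transcripts, and shares within a gene could be compared for 26 of them. RRM2, with 1 value for both transcripts, could not show a difference in share, as held for 4 of all 7377 compared symbols with 2 or more listed transcripts. A transcript was named where it reached 1 FPKM in either library and its share of the gene's level differed by at least 20 percentage points. This held for 3 of the 27 (11.1%), TYMS, CDC25A and RRM1, all of them G1/S genes. Of the 7377 symbols 24.6% met the same rule, and 21.8% of those with a mean of at least 5 FPKM. Shares of transcripts that overlap are estimates of the authors' software, and they have no error here.

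In TYMS the shift was the largest of the members. TYMS-203, the full-length transcript with 7 exons and 939 coding bases, stood at 9.85 in PC9 and at 31.2 FPKM in MTAC-P, or 40.0% and 82.6% of the gene. TYMS-201, with 6 exons and 837 coding bases, stood at 14.7 and 6.58, or 59.6% and 17.4%. The third listed transcript, TYMS-202, was below 0.1 FPKM in both. Counted by TYMS-203 alone the log2 ratio was 1.57, past 2-fold, against 0.60 for the sum of all transcripts.

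In CDC25A the added level lay in the shorter form. CDC25A-201, with 15 exons, stood at 11.8 in PC9 and at 11.5 FPKM in MTAC-P. CDC25A-202, with 14 exons, stood at 1.14 and 4.999, or 8.81% and 30.3% of the gene. The longer form was thus alike in both libraries.

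The exon that 1 form of each gene has and the other lacks is shown in capitals, from the GENCODE release 29 transcripts. On each side stand 15 bases of the neighbouring exons in lower case. TYMS-203 has 1662 exonic bases and TYMS-201 has 1327, so the TYMS forms also differ outside this exon. Exon 4 of TYMS-203 (chr18:669072-669173, plus strand) is 102 bases long, all coding, and its loss keeps the reading frame and removes 34 residues. Exon 6 of CDC25A-201 (chr3:48180721-48180840, minus strand) is 120 bases long, all coding, and its loss keeps the frame and removes 40 residues. The joined sequence of the form without the exon follows each.

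TYMS-203: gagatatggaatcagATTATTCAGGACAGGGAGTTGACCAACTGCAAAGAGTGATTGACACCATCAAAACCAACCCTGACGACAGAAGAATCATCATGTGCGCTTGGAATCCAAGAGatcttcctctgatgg
TYMS-201: gagatatggaatcagatcttcctctgatgg
CDC25A-201: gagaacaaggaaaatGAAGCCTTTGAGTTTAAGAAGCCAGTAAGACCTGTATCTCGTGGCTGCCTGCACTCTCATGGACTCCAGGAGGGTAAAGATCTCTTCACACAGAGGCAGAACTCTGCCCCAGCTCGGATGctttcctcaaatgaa
CDC25A-202: gagaacaaggaaaatctttcctcaaatgaa

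RRM1 differed in the same sense as TYMS. RRM1-201, the full-length transcript with 19 exons, stood at 27.1 in PC9 and at 46.9 FPKM in MTAC-P, or 73.1% and 97.1% of the gene. The other listed transcript, whose ID is not in GENCODE release 29, stood at 9.96 and 1.403. The full-length forms of TYMS and RRM1 were thus further apart between the lines than the sums of each gene.

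**Figure D4:**
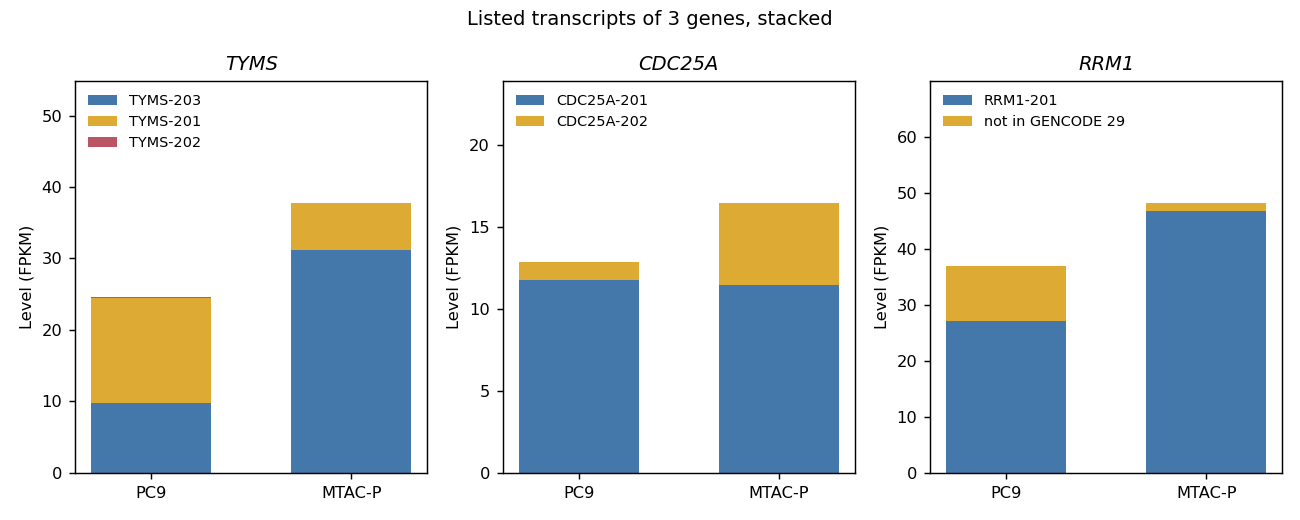
Level of each listed transcript in FPKM (vertical axis), stacked to the level of the gene, for TYMS, CDC25A and RRM1 in PC9 and MTAC-P. TYMS-203 takes 40.0% of the bar in PC9 and 82.6% in MTAC-P; CDC25A-202 takes 8.81% and 30.3%.

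The tables bear on these values in several ways. They list 101 transcripts of the members, 94 of them in GENCODE release 29, and 92 of the members' 184 coding transcripts. All coding transcripts were listed for 11 members, whose log2 ratios ran from -0.49 to 0.60 with a median of -0.011. Exons of 12 members overlap a gene on the opposite strand, and the sources used here do not say whether reads were counted by strand. TYMS shares 967 exon bases with ENOSF1, which stood at 3.19 and 3.63 FPKM (0.14). CCNE2 shares 1629 with INTS8, listed at 0.207 and 0.0115. KIF20A shares 132 with BRD8, which stood at 56.9 and 30.4 (-0.88). CDC25C shares 293 with FAM53C, which stood at 26.3 and 20.3 (-0.35), above CDC25C in level and lower in MTAC-P as well. On the same strand NUSAP1 shares 1787 exon bases with AC087721.2 and RRM2 shares 1077 with AC007240.1. BUB1B shares 457 with BUB1B-PAK6 and CENPA 138 with SLC35F6, also on the same strand. None of these same-strand genes has a listed value. The part of all these neighbours in the members' values was not tested. Chromosomes differed in their medians over compared coding genes. The median was 0.13 on chromosome 18, which holds TYMS, and -0.14 on chromosome 19, which holds CCNE1. It was 0.17 on chromosome 1, whose 3 members had a median of -0.17, and -0.039 on chromosome 5, whose 3 members had one of -0.58. Pseudogenes are named after 9 members, among them PCNA, UBE2C and TYMS, and how reads that fit both copies were assigned was not tested.

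Other genes of the same processes, from 5 lists of 167 symbols that hold none of the 43, were compared in the same way. Of the 157 compared, 7 were at least 2-fold different (4.46%), 4 higher and 3 lower in MTAC-P, where 7.77% of all compared symbols were at least 2-fold different. Replication initiation and fork genes had a median log2 ratio of 0.072, with 31 of 48 above 0, and mitosis and cytokinesis genes one of -0.049, with 25 of 60 above 0. Both medians had the sign of the corresponding members' median and were closer to 0. Among the most abundant were the polymerase delta subunit POLD2 (267 and 212 FPKM, -0.33), the RPA subunit RPA3 (212 and 165, -0.36) and the clamp loader RFC4 (111 and 93.4, -0.25). Among those of mitosis were the CDK-binding proteins CKS2 (448 and 386, -0.21) and CKS1B (280 and 381, 0.44), and securin, PTTG1 (185 and 204, 0.14).

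In the replication list ORC4, a subunit of the origin recognition complex, stood at 4.87 in PC9 and at 14.5 FPKM in MTAC-P (1.40), the only 1 of 48 at 2-fold. In the mitosis list TROAP, which encodes the spindle protein tastin, was higher (5.80 and 14.6, 1.20). KIF18B, a kinesin that acts on astral microtubules, was lower (2.17 and 0.203, -1.40), and so was SPAG5 (astrin), which holds sister chromatids at the spindle (28.9 and 13.3, -1.07). None of the 3 coding transcripts of KIF18B was listed, and its value comes from 1 other transcript. The lower level of SPAG5 lay in SPAG5-202, which GENCODE lists as a target of nonsense-mediated decay, and not in the coding SPAG5-201.

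Checkpoint genes of S and G2 phase had a median of 0.092. Of 16 genes 2 were higher by 2-fold or more and none was lower by as much, beside 3.48% and 4.29% of all compared symbols. At 1.5-fold 2 were higher and 1 lower. PKMYT1, the kinase that holds CDK1 inactive, stood at 5.66 in PC9 and at 14.3 FPKM in MTAC-P (1.20). CHEK1, the effector kinase of the replication checkpoint, stood at 1.44 and 4.13 (1.07). Of the coding transcripts 2 of 12 were listed for PKMYT1 and 3 of 14 for CHEK1. The abundant members were RAD1 (54.1 and 60.0, 0.15), CHEK2 (24.8 and 35.9, 0.52) and FANCI (25.9 and 27.3, 0.074). Most of the difference of CHEK2 lay in CHEK2-214, at 0.0037 in PC9 and 9.22 FPKM in MTAC-P. GENCODE lists that transcript as a target of nonsense-mediated decay.

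The list of the RB family and DREAM complex, which also holds E2F factors that switch genes on, had a median of 0.12. Of its 16 genes 10 lay above 0 and none was at 2-fold. At 1.5-fold 1 was lower and 0 higher, beside 11.2% and 8.96% of all compared symbols. TFDP1, the partner of the E2F proteins, stood at 97.8 in PC9 and at 112 FPKM in MTAC-P (0.19), the histone-binding subunit RBBP4 at 98.8 and 108 (0.13), and E2F4 at 50.9 and 61.5 (0.27). Subunits of the APC/C and SCF ubiquitin ligases had a median of -0.070, with 1 of 17 at 2-fold. That gene was FZR1 (CDH1), which directs the APC/C in G1, at 7.98 and 2.59 (-1.32). UBE2S (726 and 707, -0.038), SKP1 (593 and 565, -0.070) and ANAPC13 (41.0 and 48.4, 0.23) were the abundant members.

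**Figure D5:**
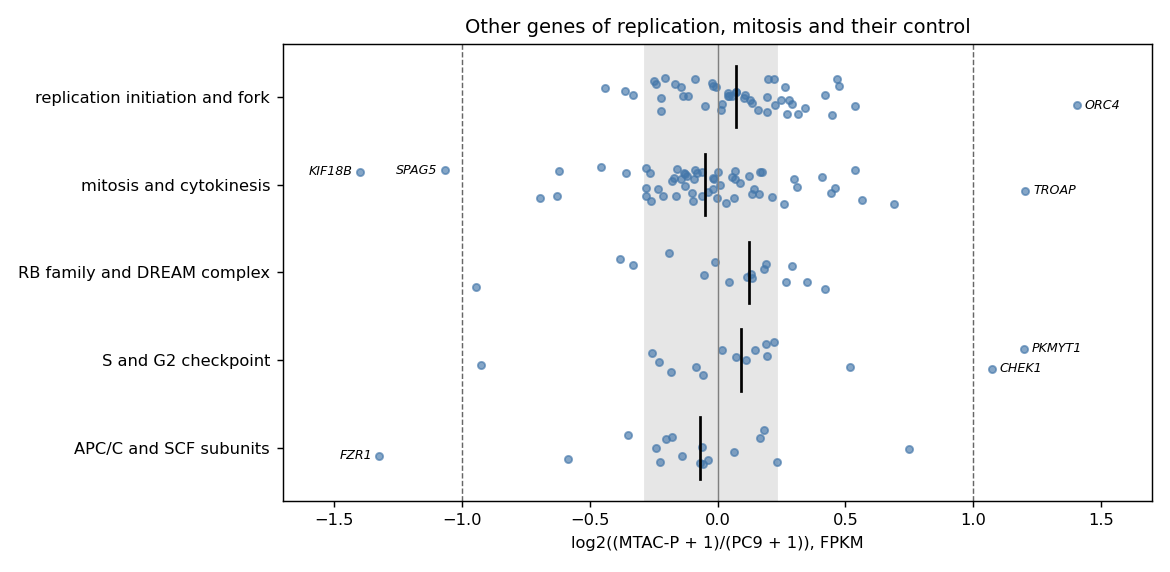
log2 ratio of MTAC-P to PC9 (horizontal axis, pseudocount of 1 FPKM) of each compared gene of 5 other lists, with the list median as a black bar, the range between the quartiles of all compared genes in grey and 2-fold as dashed lines. The 7 genes outside the dashed lines are named.

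Of these 7 genes, 6 have 2 or more listed transcripts, and 4 had a transcript whose share differed by at least 20 points, namely ORC4, TROAP, SPAG5 and CHEK1. The same held for 32 of 111 genes (28.8%) of the 5 lists with 2 or more listed transcripts, and for 24.6% of all such symbols. ORC4-203 stood at 0.0183 in PC9 and at 11.1 FPKM in MTAC-P and so held the difference of its gene. SPAG5-202 stood at 18.99 and 0.603, while SPAG5-201 stood at 9.93 and 12.7, in the other direction. CHEK1-203 stood at 0.606 and 4.10. TROAP-202 stood at 1.13 and 8.66. The difference of each of the 4 genes thus lay mostly in 1 transcript.

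The libraries themselves could be compared in a few measures only. Listed values summed to 693444 FPKM in PC9 and 685082 in MTAC-P, but FPKM is scaled to library size, so close sums say little. Mitochondrial transcripts made up 20.3% and 17.6% of the sum, and scaling without them changed the 1.5-fold calls, as given above. Epithelial markers were present in both, 6 of 6, from CDH1 (35.2 and 35.1) to KRT18 (2329 and 2720). Of the leukocyte markers CD68 alone reached a mean of 1 FPKM (22.2 and 28.8), and the other 5, PTPRC and CD3E among them, summed to less than 2 in each library. Fibroblast markers summed to 2.49 and 2.94 FPKM, and COL1A1 alone of them reached a mean of 1 FPKM (1.20 and 1.33). Endothelial ones summed to 3.42 and 4.20, nearly all of it CDH5 (3.34 and 4.13), and PECAM1 had no listed value. The number of reads is unknown, so genes near 1 FPKM, such as MELK in MTAC-P, have no stated precision.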

How the data were processed

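RNA-seq of 1 PC9 and 1 MTAC-P library was used. The submitters' processing notes name Trim Galore, TopHat, Cufflinks and hg38, without versions or roles, and no source used here names an annotation release. Deposited values, 1 per transcript, carry no unit and were taken here as FPKM because Cufflinks is named. Each table lists 65535 transcripts, up to ID number 437205; later ones were not analysed here. Depth is unknown.

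Values were summed by symbol and compared as log2((MTAC-P + 1)/(PC9 + 1)) where the mean was at least 1, and 2-fold was the size rule. GENCODE release 29 (GRCh38, the assembly that hg38 names) gave coordinates and exons. RefSeq gave promoters. Python 3.11.15 with numpy 2.4.6, pandas 2.3.3 and matplotlib 3.10.9 was used. The summing and the 2-fold call were tested on simulated data, with changes beyond 2-fold in abundant genes only. That test does not bear on genes of low level or on small log2 ratios. The members, lists and rules were chosen with earlier results of these data known. All members were named, with list genes at 2-fold, the 3 most abundant of each list, and transcripts by the share rule. Of the lists, 1 gene is not reported here and was left out of its list's counts.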

Additional observations from a re-analysis of the deposited data

How the results depend on the processing

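The count of 1 member at 2-fold, MELK, was the same with other pseudocounts, minimum means and scalings, with protein-coding transcripts only and at 4-fold. It was 2 with the most abundant transcript only, which added TYMS (1.57), 0 with symbols whose coding transcripts are all listed, where 11 members and not MELK were left, and 3 at 1.5-fold. The log2 ratio of MELK ran from -3.17 with a pseudocount of 0.1 to -1.28 with 5. The medians ran from 0.067 to 0.12 for G1/S and from -0.18 to -0.13 for G2/M genes. The 888 symbols at 2-fold became 1344 and 284 with pseudocounts of 0.1 and 5, 431 at a mean of at least 5, 174 at 4-fold, 2307 at 1.5-fold and 146 among symbols with every coding transcript listed. These last 4 test fewer symbols or use another threshold. Of 439 member values under alternatives 427 kept their sign. Pseudocounts, minimum means and the limit to symbols with every coding transcript listed cannot turn a sign, so much of this count was fixed in advance. CDC25A turned to -0.029 with its most abundant transcript only. No paired analysis was possible because PC9 and MTAC-P have 1 library apiece, so no replicate could be left out either. Depth is unknown, so low values have no precision.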
